A study of Mus musculus with 4 samples.

Results

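Trim33, Trim24, Trim28 and Trim66 encode the TIF1 group of tripartite motif (TRIM) proteins, and their loci were examined for occupancy by the Trim33 protein in T helper 17 (Th17) cells. A peak was assigned to one of these genes when its summit lay in the RefSeq gene body or within 10 kb of it (build mm10), and 12 of the 27050 peaks met this rule. The study mapped Trim33 by chromatin immunoprecipitation and sequencing (ChIP-seq), with 2 Trim33 ChIP libraries and 2 input DNA libraries without antibody. The 4 libraries were all labelled as Th17 cells of the C57BL/6 strain, differentiated in culture from naive CD4+ T cells of spleen and lymph nodes. The culture used plates coated with anti-CD3 and CD28, with IL-6, TGF-b and antibodies to IL-4 and IFN-g. The labels give no age, no other treatment and no sample that lacks Trim33. The deposited list was called on the merged Trim33 replicates, so every value below is 1 value per peak without a spread between cultures, and no comparison below has a test. The depth of the libraries is unknown here. Peaks show occupancy and not expression and therefore do not check the cell type. Of the marker loci examined, all 5 Th17 genes (Il17a, Il17f, Rora, Il23r and Ccr6) and both T cell genes (Cd3e and Cd4) held a summit, as did 53.9% of all protein-coding loci.

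TIF1 proteins carry a coiled coil and B boxes in their first part and a PHD finger and bromodomain in their last part. Trim33 (TIF1-gamma) is a ubiquitin ligase that binds activated SMAD proteins and modifies Smad4, and so acts in TGF-beta signalling, the pathway that Th17 cultures depend on. Trim28 (TIF1-beta, KAP1) is the shared co-repressor of KRAB zinc finger proteins and brings in the histone methyltransferase Setdb1 and heterochromatin protein 1 (HP1). Trim24 (TIF1-alpha) is a co-regulator of nuclear receptors and a ubiquitin ligase for p53, and Trim66 (TIF1-delta) is best known from the testis.

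All 4 genes held at least 1 Trim33 summit in the locus (the body and 10 kb beyond either end). Among the 21887 protein-coding genes, which are of all lengths, the share was 53.9%. The bodies of Trim33, Trim24 and Trim66 were 79.5, 97.6 and 67.8 kb long. All 4 of the other genes with a Trim symbol and a body longer than 60 kb also held a summit in the locus. A summit within 1000 bp of a gene end was found in 3 of the 4 (Trim33, Trim24 and Trim28), against 33.4% of all protein-coding genes. Trim66 had none there. The authors' fold enrichment at the 12 summits ran from 3.86 to 8.15 with a median of 5.76, and the median of the whole list was 6.00 (quartiles 4.87 and 7.76). At or above that median lay 6 of the 12, and 0 of the 12 reached 10-fold, which 11.1% of all peaks did. The occupancy of these loci was thus of middling height within the list.

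**Figure D1:**
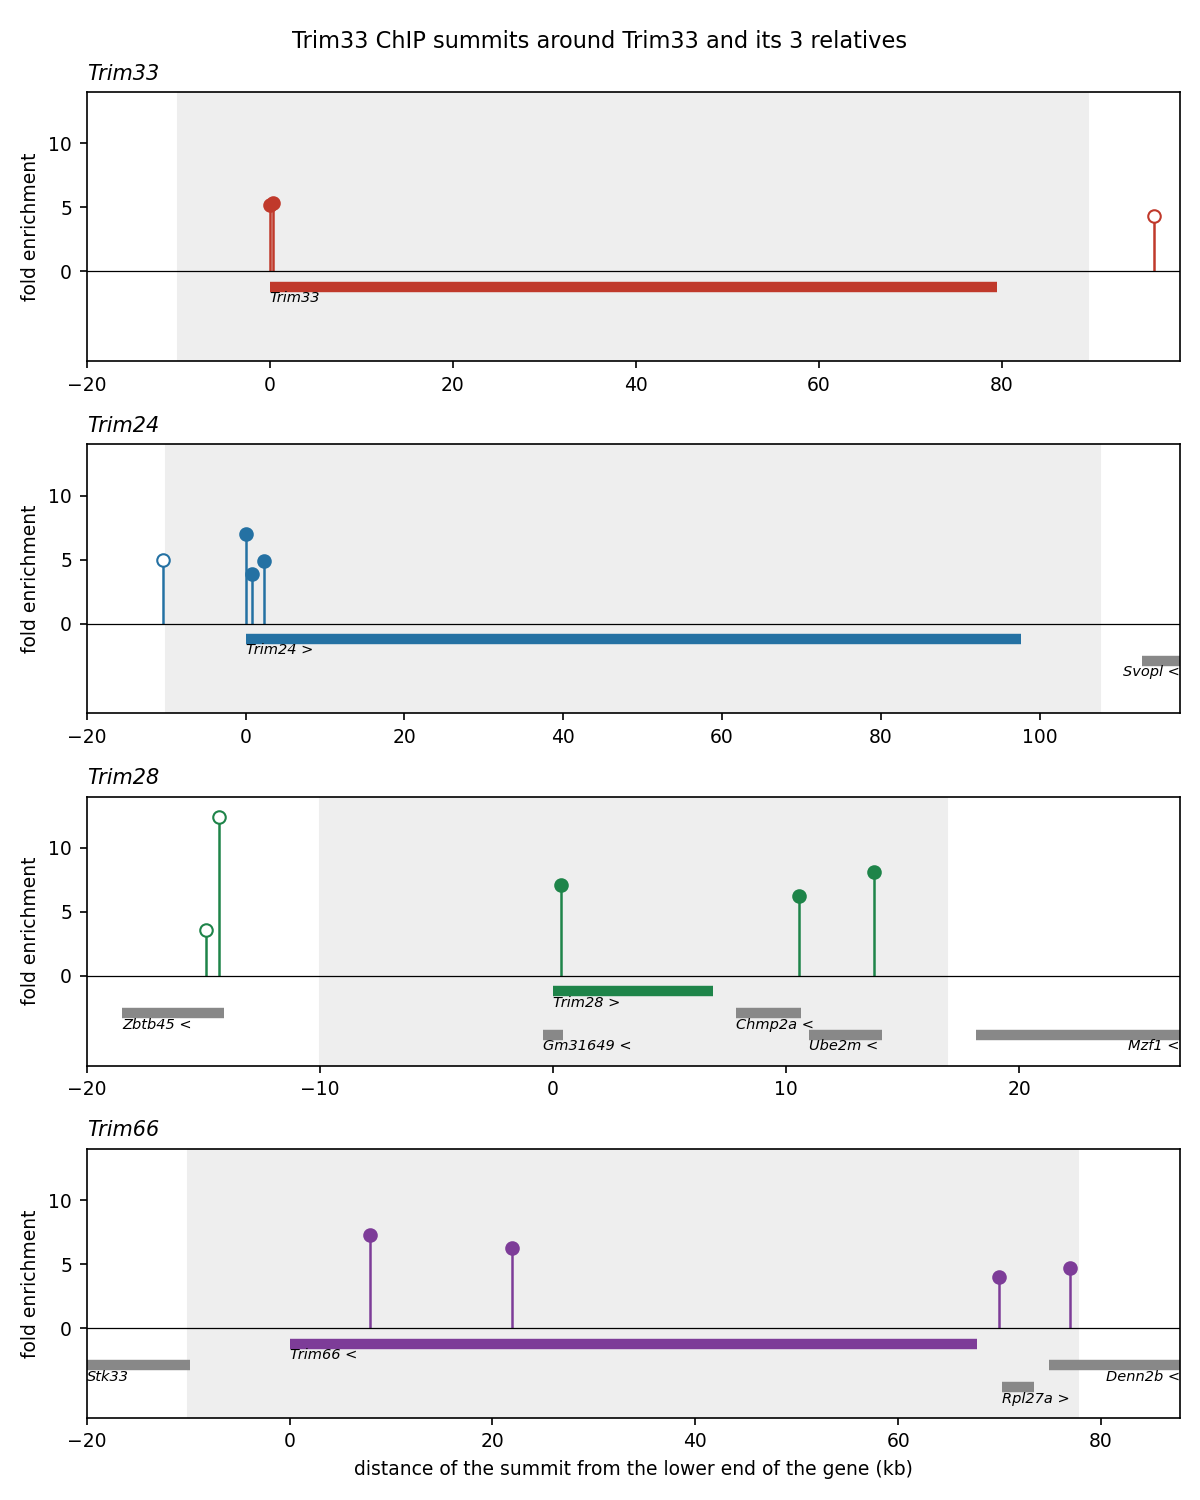
Summits around Trim33, Trim24, Trim28 and Trim66. The horizontal axis is the distance of the summit from the lower end of the gene in kb (its scale differs between panels), the vertical axis is the authors' fold enrichment, bars are gene bodies, > and < give the strand where RefSeq starts were used, and grey shading is the locus. Filled points are the 12 counted summits and open points lie outside. Those of Trim33 and Trim24 lie near the lower end of the gene, and those of Trim28 and Trim66 outside the gene lie at or in neighbouring genes.

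Trim33 (gene ID 94093) lies on chromosome 3 from 103279293 to 103358770, a body of 79.5 kb. Trim33 protein occupied its own gene at 2 summits, and both lay inside the gene by the lower end. The first peak (103279293 to 103279433) had a summit 74 bp from that end, a fold of 5.21 and a −log10 q of 7.48. The second peak (103279600 to 103279921) had its summit 411 bp from the end, with a fold of 5.30 and a −log10 q of 11.2. The summits were 337 bp apart and of nearly the same height, and 33.7% and 34.3% of all peaks had a lower fold. The remainder of the 79.5 kb body and both flanks held no summit. No other gene, coding or not, reached into the locus, so these summits had no neighbouring gene to share. The strand and promoter sequence of Trim33 were not used here.

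Trim24 (gene ID 21848) runs on the plus strand of chromosome 6 from 37870811 to 37968445. All 3 of its summits lay inside the gene, in the first part after the 5′ end. The highest peak (37870511 to 37871162) spanned the annotated start, with its summit 84 bp after it, a fold of 6.99 and a −log10 q of 15.3. At 652 bp it was wide for this list, since 1.93% of all peaks were at least that wide and the median width was 227 bp. The next summit, 815 bp after the start, had a fold of 3.86 and a −log10 q of 3.75, the weakest of the 12 by both measures (q rank 26243 of 27050). The third, 2306 bp after the start, had a fold of 4.86. The rest of the 97.6 kb body was without a summit. Another peak lay just outside the locus, 10365 bp below the lower end and at 4.98-fold. The outermost summit that was still counted was 9148 bp from its gene, at Trim66, with a fold of 4.66.

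Trim33 and Trim24 thus shared a pattern of 2 summits within 1000 bp of the same gene end. Of the 7306 protein-coding genes with a gene-end summit, 14.3% had 2 or more at the same end. Among all 21887 protein-coding genes the share was 4.77%. Of the other Trim genes, Trim8 and Trim26 had this pattern too.

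Trim28 (gene ID 21849) is a short gene of 6.88 kb on the plus strand of chromosome 7, from 13024152 to 13031032. Its own peak (13024179 to 13024967) began just after the start site, with a summit 358 bp after it, a fold of 7.10 and a −log10 q of 11.7. This peak was 789 bp wide, the widest of the 12, and 0.787% of all peaks were at least as wide. The same summit lay 79 bp from the 5′ end of Gm31649, a predicted gene on the opposite strand that overlaps the first part of Trim28. By position the peak belongs to both starts. The other 2 summits lay outside Trim28 and at the starts of neighbours on the minus strand. One (13034521 to 13034823) had a fold of 6.22 and lay 59 bp from the 5′ end of Chmp2a, a subunit of the ESCRT machinery that remodels membranes. The other (13037729 to 13038482) was the highest of the 12, at 8.15-fold, and lay in Ube2m, which encodes a conjugating enzyme for the ubiquitin-like protein NEDD8. RefSeq gives 3 starts for Ube2m, and the summit was 49 bp from the nearest of them. Both also fell in the locus of the zinc finger gene Mzf1. Within the gene body, or within 5 kb of it, the highest fold of Trim28 was therefore 7.10 and not 8.15.

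Trim66 (gene ID 330627) lies on the minus strand of chromosome 7 from 109449001 to 109516759. It had the most summits of the 4 genes, 4 in a locus of 87.8 kb, and 2 of them lay inside the gene. These were 7905 and 21898 bp above the lower end, which is the 3′ end. The first (109456539 to 109456991) had a fold of 7.24 and a −log10 q of 18.1. The second (109470839 to 109471014) had a fold of 6.28 and a −log10 q of 16.0. They were the only summits of the 12 that lay inside a member gene and over 2500 bp from both of its ends. The other 2 lay above the upper end. One (109518873 to 109519189), at 4.02-fold and 2221 bp from Trim66, was 215 bp before the start of Rpl27a, a ribosomal protein gene on the opposite strand. The last, at 4.66-fold, lay inside Denn2b and 1996 bp from its 3′ end. Exons and introns were not used here, so the place of the summits within gene structures is not given.

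Counting each summit by the protein-coding gene end nearest to it, 7 of the 12 belonged to the gene they were counted for and 5 to a neighbour. All 3 of the Trim28 locus and 2 of 4 of the Trim66 locus were of the second kind, and none of the Trim33 and Trim24 loci. For comparison between genes of unlike length, the density was 2.01 summits per 100 kb of locus for Trim33, 2.55 for Trim24, 4.56 for Trim66 and 11.2 for Trim28. The median over all protein-coding loci was 1.11, and over the 11796 loci with a summit it was 3.62. A locus enters the second set only with at least 1 summit, so short loci there are dense by definition. The highest fold was 5.30, 6.99, 7.24 and 8.15 in the same order, against a median of 7.03 over the 11796 loci with a summit. By this measure 20.6% of occupied loci were lower than Trim33 and 65.4% were lower than Trim28.

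**Figure D2:**
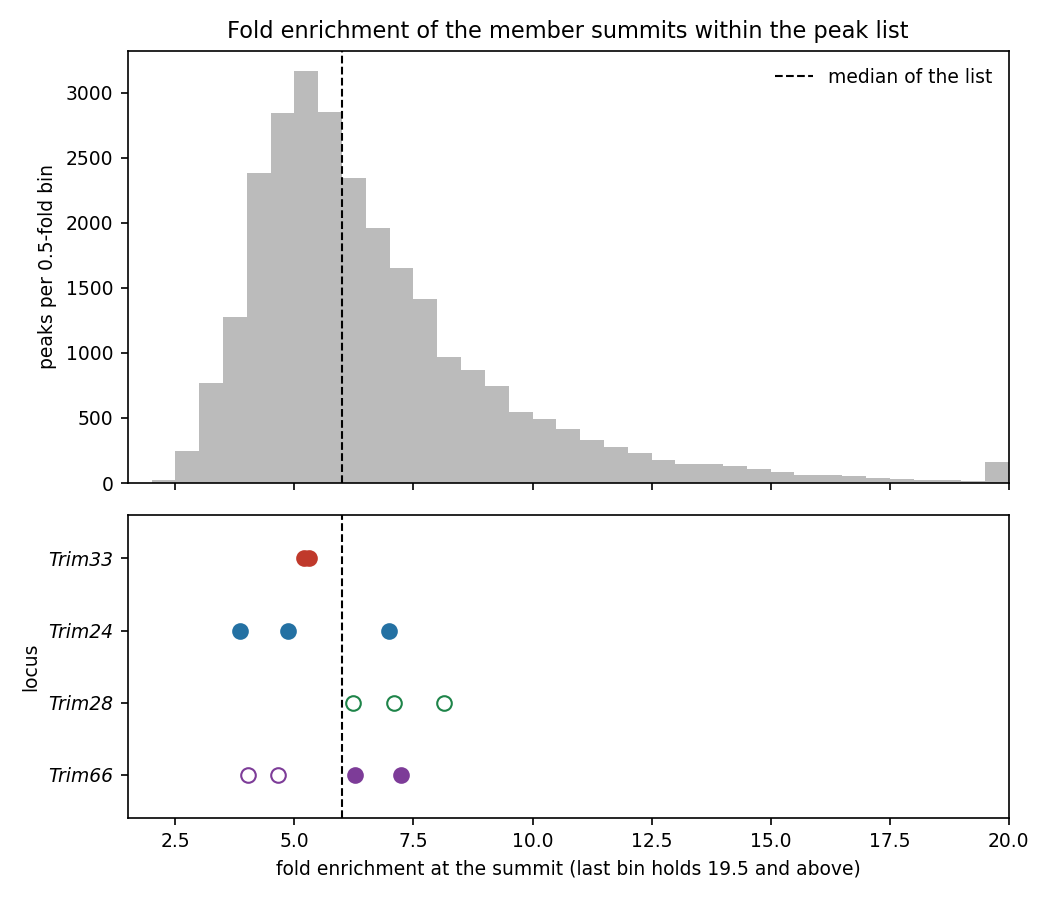
Fold enrichment of the 12 summits within the peak list. The upper panel counts all 27050 peaks per bin of fold, the lower panel shows each summit by locus, and the dashed line is the list's median of 6.00. Filled points are summits nearest to an end of the gene itself and open points are nearest to an end of a neighbour. Both Trim33 summits lie below the median and all 3 of the Trim28 locus above it.

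The sequences before the start sites are shown because the peaks differ in how they sit on them. RefSeq starts were found for 3 of the 4 genes in the table used (GRCm38.p6), and the 250 bases before the start are printed 5′ to 3′ on the strand of the gene. Rpl27a is added because the summit counted for Trim66 lies in that window. Capitals mark matches on either strand to CAGAC (the SMAD binding core), GGGCGG (the GC box of Sp and Klf factors) and CCGGAA (an ETS core). In Rpl27a the first ETS and GC box matches adjoin and make 1 run of capitals.
Trim24 (chr6:37870561-37870810, plus strand, all 250 bases in the peak): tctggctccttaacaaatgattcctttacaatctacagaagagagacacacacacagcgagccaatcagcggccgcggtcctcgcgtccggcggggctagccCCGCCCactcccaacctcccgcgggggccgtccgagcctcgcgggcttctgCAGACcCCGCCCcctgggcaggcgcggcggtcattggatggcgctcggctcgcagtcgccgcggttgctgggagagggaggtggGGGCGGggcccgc
Trim28 (chr7:13023902-13024151, plus strand, 0 bases in a peak): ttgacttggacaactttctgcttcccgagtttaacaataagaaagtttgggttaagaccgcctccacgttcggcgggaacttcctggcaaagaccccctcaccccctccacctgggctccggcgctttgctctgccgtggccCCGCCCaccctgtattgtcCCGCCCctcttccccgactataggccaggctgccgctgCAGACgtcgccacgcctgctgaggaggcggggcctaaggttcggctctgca
Trim66 (chr7:109508135-109508384, minus strand, 0 bases in a peak): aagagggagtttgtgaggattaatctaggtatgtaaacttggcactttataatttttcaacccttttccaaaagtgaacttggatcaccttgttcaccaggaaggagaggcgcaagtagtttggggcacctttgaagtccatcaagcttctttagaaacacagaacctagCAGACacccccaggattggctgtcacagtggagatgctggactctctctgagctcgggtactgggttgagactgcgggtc
Rpl27a (chr7:109518945-109519194, plus strand, 245 bases in the peak): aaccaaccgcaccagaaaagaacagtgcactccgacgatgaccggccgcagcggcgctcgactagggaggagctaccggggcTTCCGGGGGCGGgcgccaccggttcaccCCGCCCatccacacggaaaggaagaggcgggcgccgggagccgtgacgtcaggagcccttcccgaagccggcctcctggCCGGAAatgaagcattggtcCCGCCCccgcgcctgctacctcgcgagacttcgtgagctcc

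The Trim24 window lay wholly under its peak, whereas the Trim28 peak began after the start site, so that its upstream window was outside. The printed Trim66 start lies inside the gene body of the longest model, and the nearest summit was 10846 bp away. The upper end of that body, its 5′ end, was not among the starts used, so the sequence before it was not examined. Trim24 has another RefSeq start in the gene, with its nearest summit 27370 bp away and 1 CpG in its 250 bases. Among 7123 starts of protein-coding genes with a summit within 1000 bp, the nearest summit lay at or after the start in 33.3%, and its median position was 43 bp before the start (−43 bp). The nearest summits of Trim24 (84 bp after) and Trim28 (358 bp after) were both on the downstream side, and that of Rpl27a was upstream.

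CpG content differed among these windows. The ratio of observed to expected CpG was 0.892 for Trim24, 0.730 for Trim28, 0.219 for Trim66 and 0.984 for Rpl27a. Starts with a summit within 1000 bp had a median ratio of 0.801 (quartiles 0.640 and 0.943), and the 14140 starts without one had 0.326 (0.145 and 0.628). The G+C share was 69.6% for Trim24, 62% for Trim28, 47.2% for Trim66 and 68.8% for Rpl27a. The printed windows of Trim24, Trim28 and Rpl27a thus resembled starts with a summit, and the Trim66 window, which had none, resembled starts without one. Not every start beside a counted summit did so. Before Chmp2a, with a summit 59 bp from its start, the ratio was 0.482, below the lower quartile of starts with a summit. It was 0.960 before Gm31649 and 0.876, 0.855 and 1.07 before the 3 starts of Ube2m. G+C content can also affect how well fragments are amplified and sequenced, and its part in these values was not tested.

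**Figure D3:**
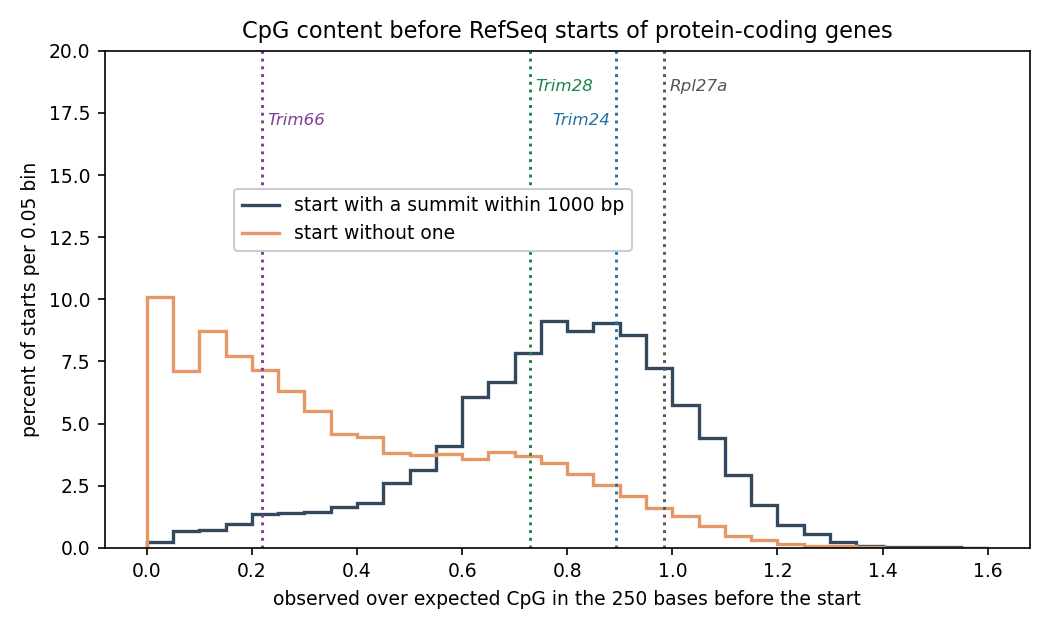
CpG content before RefSeq starts. The horizontal axis is the ratio of observed to expected CpG in the 250 bases before the start, and the vertical axis is the percent of starts in each 0.05 bin, for starts of protein-coding genes with and without a summit within 1000 bp (the last bin holds higher ratios too). Dotted lines mark Trim66 at 0.219, Trim28 at 0.730, Trim24 at 0.892 and Rpl27a at 0.984.

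Of the 8 motifs searched on both strands, CAGAC was in the windows of Trim24, Trim28 and Trim66, 1 match each, and in 40.9% of all windows. GC boxes (GGGCGG) numbered 3 in Trim24, 2 in Trim28, 0 in Trim66 and 3 in Rpl27a. They were found in 42.6% of all windows, in 66.0% of those with a summit within 1000 bp and in 30.8% of those without. One GC box of Trim24 follows its CAGAC match by a single base. CCGGAA had 2 matches in Rpl27a and 0 in the 3 member windows, and was found in 15.0% of all windows. It was in 26.5% of windows with a summit within 1000 bp and in 9.19% of those without. The E box CANNTG, found in 62.8% of windows, had 1 match in Trim24 and 1 in Trim28. Its shares were 53.7% of windows with a summit and 67.4% of those without. The AP-1 (TGANTCA), RUNX (TGTGGT), STAT (TTCNNNGAA) and NRF1 (its 10-letter palindrome) motifs had no match in the 4 printed windows, and were in 6.13%, 12.4%, 6.58% and 1.07% of all windows. In the same order they were in 4.06%, 9.86%, 5.31% and 1.90% of windows with a summit. Without a summit the shares were 7.18%, 13.7%, 7.22% and 0.658%. For CAGAC the shares were 38.6% of windows with a summit and 42.0% of those without. These shares are descriptions, and a match is not a binding site.

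Farther out, the surroundings of the 4 genes differed. Between 10 and 50 kb from the gene there were 6 further summits at Trim33, 2 at Trim24, 6 at Trim28 and 0 at Trim66. The strongest at Trim24 (37821579 to 37822178) reached 14.5-fold, rank 661 of 27050, at 49088 bp below the lower end, and Trim24 was the protein-coding gene with the nearest end. The strongest at Trim28 (13009583 to 13009974) had 12.4-fold, 199 bp from an end of the zinc finger gene Zbtb45. That at Trim33 (103383264 to 103383495) had 7.59-fold at 24597 bp above the upper end, with no nearer end of a protein-coding gene. At each of these 3 genes the strongest outer peak stood above the highest in the locus.

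The other TRIM genes served as the wider family, since they share the RING, B box and coiled coil plan but mostly lack the PHD finger and bromodomain. Of 64 other protein-coding genes with a Trim symbol and number, 38 (59.4%) had a summit in the locus and 22 (34.4%) at a gene end. These shares lie near those of all protein-coding genes, 53.9% and 33.4%. The median of the highest fold over the 38 was 6.69. Ranked by highest fold among the 42 Trim genes with a summit, Trim28 was number 15, Trim66 number 17, Trim24 number 18 and Trim33 number 32. The place of Trim28 rests on the 8.15-fold peak at Ube2m, and with its own peak of 7.10-fold it would stand below Trim66 at 7.24. With 2 or more summits at the same end there were 2 of the 64 (Trim8 and Trim26), against 4.77% of all protein-coding genes.

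The highest Trim peaks lay outside the TIF1 group. A peak of 18.2-fold on chromosome 17 (36859109 to 36859487) lay inside Trim26, an antiviral regulator, 71 bp from its end, and also fell in the locus of its neighbour Trim15. Trim55, a muscle sarcomere protein, had 17.1-fold inside the gene, 15373 bp from an end. Trim2, a neuronal ubiquitin ligase, had 15.3-fold at 4225 bp above its upper end. Trim25, the ligase that activates the RNA sensor RIG-I, had 11.4-fold at 3974 bp above its upper end. The genes most like each TIF1 gene, by the difference in log2 highest fold over this 1 list, were Trim30c (0.010) and Trim17 (0.059) for Trim33 and Trim27 (0.014) and Trim35 (0.027) for Trim24. For Trim28 they were Trim72 (0.011) and Trim65 (0.087), and for Trim66 they were Trim8 (0.034) and Trim27 (0.067). Those of Trim28 rest on the 8.15-fold peak at Ube2m and were not recomputed with the 7.10-fold peak at its own start.

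**Figure D4:**
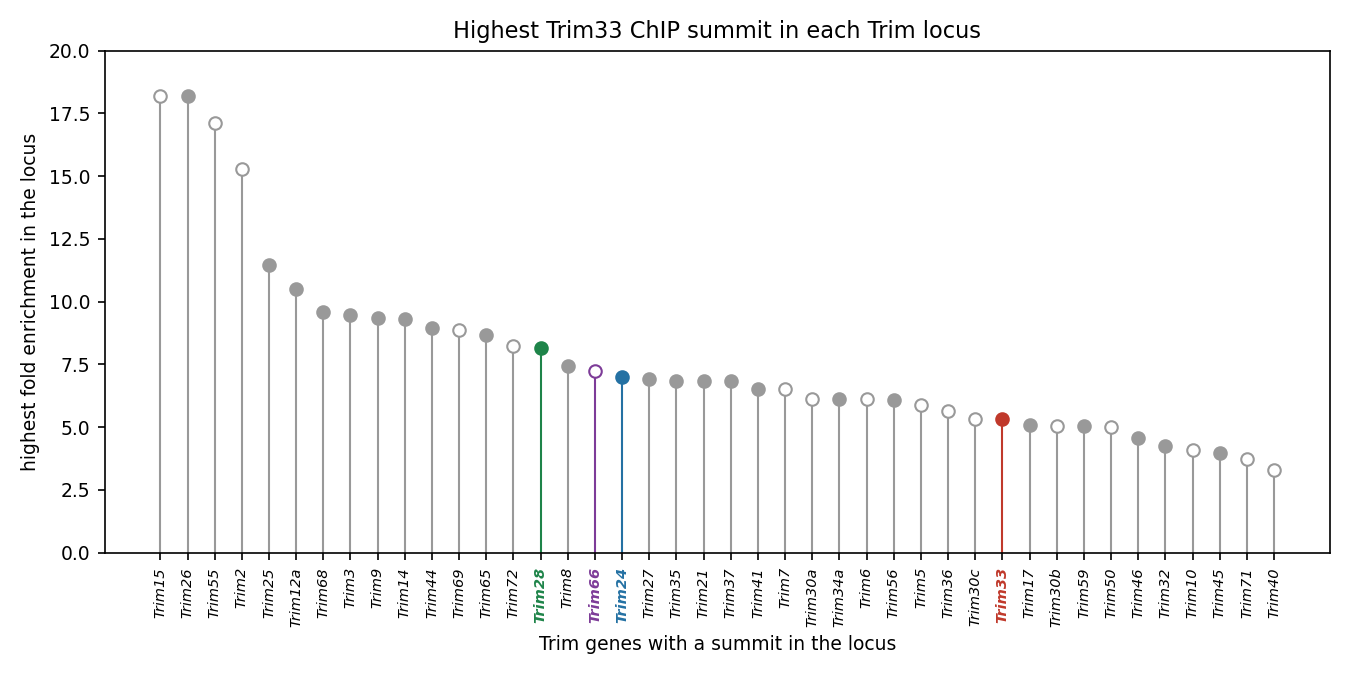
Highest fold enrichment in the locus of each of the 42 Trim genes with a summit. Each stem is 1 gene, ordered by the authors' fold at its highest summit, and filled points have a summit within 1000 bp of a gene end. The height for Trim28 is that of the peak at Ube2m, and the summit near its own start had 7.10-fold. Trim28 (8.15), Trim66 (7.24), Trim24 (6.99) and Trim33 (5.30), in colour, lie in the middle and lower part of the order, and Trim15 and Trim26 share the 18.2-fold peak.

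Genes for known partners of the TIF1 proteins were described in the same way, from a list of 12. A summit lay in the locus of 11 of them, and 9 had one at a gene end, where the shares of all protein-coding genes were 53.9% and 33.4%. In gene bodies alone 8 of the 12 held a summit, and with 5 kb on each side 10 did. The shares of all genes were not computed for these settings. The list was chosen with earlier results of these data known. In the Smad4 axis of Trim33, Smad2, Smad3 and Smad4 each had a gene-end summit. Their loci held 2, 16 and 3 summits up to 4.33-, 11.9- and 13.3-fold. The highest lay inside the gene, 15919, 19464 and 8520 bp from an end. Usp9x, which removes the ubiquitin that Trim33 adds to Smad4, had 1 summit of 8.43-fold, 396 bp inside its lower end on the X chromosome. Among the silencing partners of Trim28, Setdb1 had the highest peak of the list of 12, 16.8-fold on chromosome 3 (95357146 to 95357431) and 73 bp above its upper end. Among the HP1 genes, the locus of Cbx3 (HP1-gamma) held 6 summits up to 7.21-fold, of which 4 were nearest to an end of its neighbour Hnrnpa2b1 and 2 to Cbx3. Cbx5 (HP1-alpha) had 1 of 6.82-fold at 9160 bp below the gene, and Cbx1 (HP1-beta) had none. The remodeller genes Chd3 and Chd4 had 3 summits up to 7.41-fold and 1 of 4.06-fold. For the partners of Trim24, Rara, the retinoic acid receptor, had 6 summits up to 10.4-fold, none at a gene end. Trp53, which encodes p53, had 2 summits at its lower end, the higher with 8.76-fold at 22 bp from the end.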

How the data were processed

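The submitters' processing notes name MACS2 (2.1.1.20160309), Bowtie (1.2.1.1), Trim Galore (0.3.7) and mm10 as genome build. The control, the settings and the cutoff used for calling were not given in the sources used here. The deposited peak list of the merged Trim33 replicates gives, for each peak, a fold enrichment (a ratio) that the authors' caller made at the summit, with the −log10 of its p-value and q-value. The authors' score was not used. These values are the authors' and served to describe and rank peaks within this list. A site can pass on the summed reads without passing in either library alone.

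Summits were placed on 21887 protein-coding genes of RefSeq (GRCm38.p6) with Python 3.11.15 and pandas 2.3.3, and coordinates count from 1. Counting was checked on planted summits in 1861 genes, with 0 wrong counts. Named genes are the 4 TIF1 genes, genes that share their summits, 12 partners, the 5 Trim genes with the highest fold and, for each TIF1 gene, the 2 with the nearest highest fold. Genes that only describe a neighbouring peak are named by position. Members and lists were chosen with earlier results of these data known. The alternatives were other flanks and windows, stricter peak sets and any overlap in place of the summit. Protein sequences were not used here, and the markers of other blood cells are not reported here.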

Additional observations from a re-analysis of the deposited data

How the results depend on the processing

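Of 57 values under alternatives, 45 stayed the same (a highest fold) or within 1.5 times the reported count. Some could not have moved, such as a highest fold above 6.00 among the peaks at or above the median fold. All 4 TIF1 genes held a summit under each alternative run except among the 13528 peaks at or above the median fold, where Trim33 had none. No highest fold could be given for Trim33 there, and that missing value is not among the 57. The shares of all protein-coding genes with a locus summit were not computed under these alternatives. With 50 kb on each side 61 of the 68 Trim genes, the TIF1 genes included, held a summit. With 50 kb on each side the TIF1 loci held 26 summits in place of 12, and the highest fold was 7.59 for Trim33, 14.5 for Trim24 and 12.4 for Trim28, because farther peaks then count. Trim28 had 7.10 in the gene body alone and with 5 kb. The stricter sets by fold and by −log10 q each left 6 of the 12 summits. Of the 68 Trim genes, those with a locus summit numbered 26 in gene bodies alone and 26 in the set by −log10 q, against 42. Those with a gene-end summit numbered 13 in the set by fold and 14 in that by −log10 q, against 25. These sets hold fewer peaks by construction. The shares of all protein-coding genes in gene bodies alone and in these sets were not computed. With a window of 2500 bp all 4 TIF1 genes had a gene-end summit, against 38.5% of all protein-coding genes, and the one gained, at Trim66, lies 215 bp from the start of Rpl27a. Leaving out a replicate was not possible, since the list holds no value per library. No paired analysis was possible because the libraries were pooled before calling. Depth is unknown, so a locus without a summit is not shown to be unoccupied.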

Other observations

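Cbx3 held 5 summits within 1000 bp of its lower end, which is its 5′ end, and it was the 1 protein-coding gene of 21887 with that many at one end. Another 9 genes had 4 and 76 had 3. Of these 5 summits, 3 lay nearer to an end of Hnrnpa2b1 than to Cbx3, so the region is shared by both genes. Hnrnpa2b1, an RNA-binding protein gene that starts on the opposite strand close by, was among those with 4. The 6 summits of the Cbx3 locus, all on chromosome 6, had folds of 5.46, 5.50, 4.84, 2.89, 7.21 and 5.16 in order of position. They lay at 1160, 743, 315 and 63 bp below the lower end of Cbx3 (−1160, −743, −315 and −63 bp) and at 373 and 913 bp above it. The lowest fold of the 6 was at the summit between both starts, and the highest inside Cbx3. This gene was singled out after its values were seen.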
